A study of Mus musculus with 6 samples.

Results

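The genes described here are 10 regulators and surface markers of blood stem and progenitor cells, followed in mouse leukaemic blasts with or without a Stat3β transgene. They are the transcription factor genes Mecom, Erg, Gata2, Lmo2, Tal1, Myb, Hlf and Zfp521 and the surface protein genes Cd34 and Cd93. They were chosen by name, and each Entrez gene ID was matched to its symbol; all 10 were found among the 24454 genes of the table. Of the 10, 8 passed the filter on low values and were tested among 12642 genes. Tal1 and Zfp521 did not pass it. For these 2 genes the data go against the label of the list, since at most 12 reads of Tal1 and 3 of Zfp521 were counted in any library.

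These proteins act as a network in early blood cells. In mouse progenitor cells GATA2, TAL1, its partner LMO2 and the ETS factor ERG bind many of the same enhancers, including those of each other's genes, while MECOM, MYB and HLF are needed for stem cells to persist or for progenitors to multiply. CD34 and CD93 are glycoproteins of the progenitor surface that are also made by endothelial cells. In acute myeloid leukaemia driven by MLL-AF9, a fusion of a histone methyltransferase with an elongation factor, the blasts keep part of this progenitor programme, and high MECOM marks a subset of human leukaemias with poor outcome.

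The study compared 3 Stat3β TG with 3 WT libraries of RNA from sorted blasts. The Stat3β TG blasts derived from C57BL/6 fetal liver cells carrying Mx1-Cre recombinase and a Stat3β transgene, and the WT blasts from those of wild-type littermates. Both were transformed with an MLL-AF9 retrovirus and transplanted into NSG mice, a strain without T, B or NK lymphocytes. Recipients were injected with poly(I:C) 4 weeks after transplantation and their marrow was harvested at 6 weeks. Mx1 is an interferon-induced promoter, poly(I:C) acts through interferon, and the WT label does not mention Cre, so the transgene and Cre cannot be told apart. Age, number of donors and any batch are not given, and each p therefore measures only the spread between these libraries.

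Values are normalized counts, that is reads per gene scaled to a common depth by the authors. Whole reads could be recovered from them, 21809788 to 51934498 per library, with Stat3β TG 1 and Stat3β TG 3 the deepest. Stat3 had 11129, 9846 and 8034 normalized counts in Stat3β TG and 8058, 16112 and 10879 in WT, which sums both splice forms and does not measure Stat3β by itself. On the first principal component, with 47.4% of the variance, WT 2 and WT 3 stood apart at 64.4 and 49.7 from the other 4 libraries, at -38.3 to -16.3. By sex-linked genes the split was another one, with Xist at 19.1 to 71.6 in Stat3β TG and 835 in WT 2, against 42699 and 45196 in WT 1 and WT 3. Y-linked genes summed to 8781 to 9465 in Stat3β TG and 11012 in WT 2, against 58.8 and 71.8 in WT 1 and WT 3. The WT libraries thus differed from each other in sex-linked genes, and the cause of the spread within WT was not tested. By Y-linked genes every Stat3β TG library shared the male pattern of WT 2, while WT 1 and WT 3 had the female one. Xist in WT 2, at 835, was still above every Stat3β TG library, and the source of these reads was not tested. Sex and transgene can thus not be fully told apart, and only leaving out WT 1 and WT 3 compares libraries of the same Y-linked pattern. With WT 1 as the only WT library, a fit given below for several members, the sex pattern and the transgene coincide. As a check of the labelled cell type, Hoxa9, which MLL fusions switch on, was at 7444 to 8848 in Stat3β TG and 7147 to 9288 in WT.

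The start regions of Mecom, Erg and Cd34, the members with an unadjusted limma p under 0.05, are shown because the gene-level values cannot say which start was used. Mecom has a distal start, which gives the long MDS1-EVI1 form, and a proximal one, which gives EVI1, and Erg has 3 annotated starts. Of the 10 members, 7 had an entry in the RefSeq promoter table of GRCm38.p6, with 12 starts in all, and Lmo2, Cd93 and Zfp521 were not matched. Each line gives the 250 bases before a start, 5′ to 3′ on the gene's strand. Capitals mark the ETS letters GGAAG and the GATA letters AGATAA on either strand.
Mecom distal start, chr3:30509760-30510009, minus strand: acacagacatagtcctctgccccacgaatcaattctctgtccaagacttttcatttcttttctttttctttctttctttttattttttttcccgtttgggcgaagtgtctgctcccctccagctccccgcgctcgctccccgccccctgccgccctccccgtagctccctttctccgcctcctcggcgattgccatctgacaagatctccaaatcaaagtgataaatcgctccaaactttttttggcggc
Mecom proximal start, chr3:30013205-30013454, minus strand: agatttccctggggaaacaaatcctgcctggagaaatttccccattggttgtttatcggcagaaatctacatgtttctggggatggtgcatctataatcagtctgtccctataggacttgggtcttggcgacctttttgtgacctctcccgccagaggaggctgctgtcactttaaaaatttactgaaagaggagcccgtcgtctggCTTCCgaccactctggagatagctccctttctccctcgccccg
Erg distal start, chr16:95586594-95586843, minus strand: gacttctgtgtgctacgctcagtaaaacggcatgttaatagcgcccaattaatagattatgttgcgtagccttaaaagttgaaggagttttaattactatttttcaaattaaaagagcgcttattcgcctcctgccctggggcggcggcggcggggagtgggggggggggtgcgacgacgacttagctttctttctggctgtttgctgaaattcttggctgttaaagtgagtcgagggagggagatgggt
Erg middle start, chr16:95530366-95530615, minus strand: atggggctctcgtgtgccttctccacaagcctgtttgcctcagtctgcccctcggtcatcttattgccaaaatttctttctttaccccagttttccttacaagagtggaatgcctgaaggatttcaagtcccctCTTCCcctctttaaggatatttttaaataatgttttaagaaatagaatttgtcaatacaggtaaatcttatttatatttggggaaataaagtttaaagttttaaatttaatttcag
Erg proximal start, chr16:95459349-95459598, minus strand: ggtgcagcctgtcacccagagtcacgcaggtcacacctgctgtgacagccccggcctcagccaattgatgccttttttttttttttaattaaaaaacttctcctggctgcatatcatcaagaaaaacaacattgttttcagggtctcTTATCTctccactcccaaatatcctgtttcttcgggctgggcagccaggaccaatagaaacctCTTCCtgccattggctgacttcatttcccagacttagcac
Cd34 start, chr1:194938571-194938820, plus strand: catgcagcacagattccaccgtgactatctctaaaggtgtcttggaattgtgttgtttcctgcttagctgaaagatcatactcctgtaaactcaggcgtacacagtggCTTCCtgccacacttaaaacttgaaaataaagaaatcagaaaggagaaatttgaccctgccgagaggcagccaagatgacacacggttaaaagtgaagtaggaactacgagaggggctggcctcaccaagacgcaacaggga

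In these windows the ETS letters stood before the proximal Mecom start, the middle and proximal Erg starts and the Cd34 start, and the GATA letters before the proximal Erg start alone among the 6 shown. Over the 12 windows of the 7 members, 6 held the ETS letters, against 64.1% of all 32851 windows of that length, and 2 held the GATA letters, against 9.99%. The E-box letters CAGNTG were in 3 windows, against 44.8%, and the MYB letters AACNG in 8, against 74.2%. The STAT letters TTCNNNGAA were in 0 of the 12, against 7.02% of all windows. ETS and STAT letters can overlap, all were searched on both strands, and a match is a description of the letters only.

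Across the whole table the test passed no gene, and so none of the 10. The limma test on log2(normalized count + 1) called 0 of 12642 genes at an adjusted p of 0.05 (0% of those tested), with 771 at an unadjusted p under 0.05. On the recovered reads edgeR also called 0 genes, with 780 at an unadjusted p under 0.05, while DESeq2 called 17 (0.134%) with 970, and none of these was a member. Of the 8 tested members, 3 had an unadjusted limma p under 0.05, against 6.1% of all tested genes. These were Mecom and Erg, higher in Stat3β TG, and Cd34, lower. With edgeR, DESeq2 and quantile normalization 2 members had an unadjusted p under 0.05, and Cd34 was at an unadjusted p of 0.0730 by edgeR, 0.0588 by DESeq2 and 0.0656 by limma after quantile normalization. In 3 members the groups did not overlap, against 10.8% of all tested genes, and these were Mecom and Erg, higher (5.87% of tested genes were higher without overlap), and Gata2, lower (4.92%). Leaving libraries out brought no member past the threshold, while limma called 2.37% of tested genes without WT 1, 0.04% without WT 2, 0.0648% without WT 2 and WT 3 and 5.98% without WT 1 and WT 3.

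**Figure D1:**
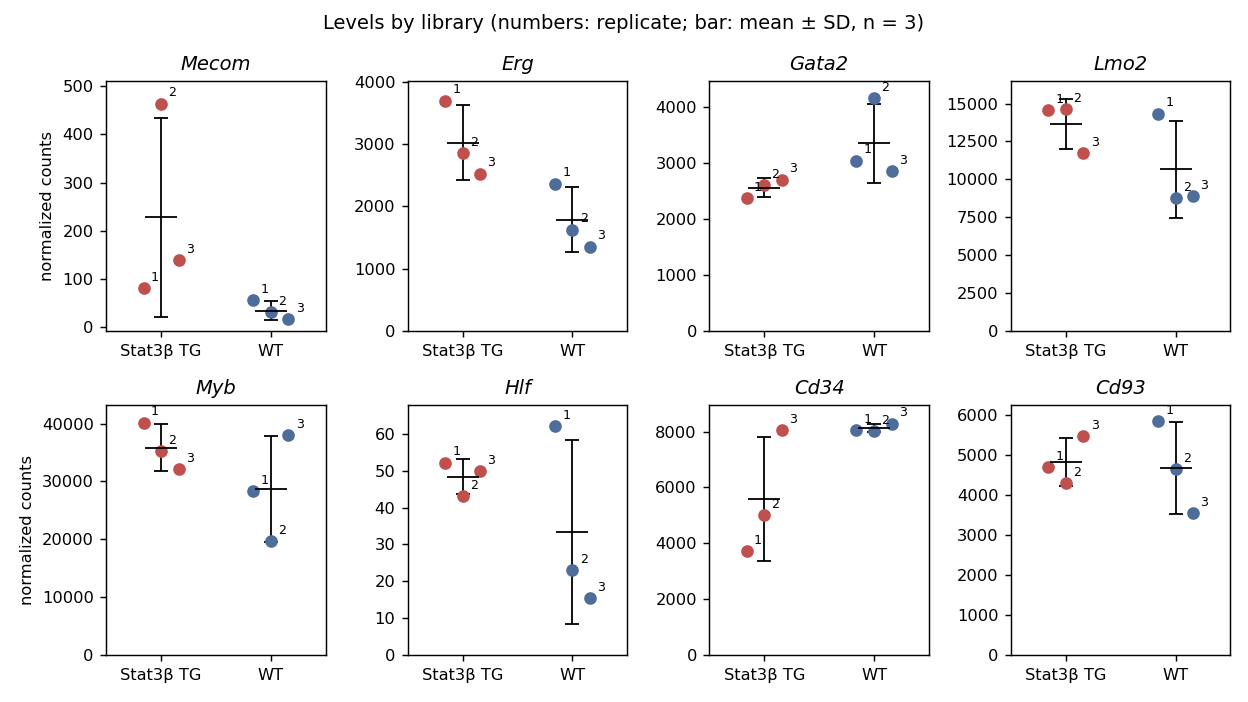
Normalized counts (y axis, from 0, a scale of its own per gene) of the 8 tested members in Stat3β TG and WT blasts (x axis); each point is 1 library with its replicate number, and the bars are mean ± SD (n = 3 each). The 3 Stat3β TG libraries lie above all WT libraries for Mecom and Erg and below them for Gata2, while 2 of the 3 lie below WT for Cd34.

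Mecom, the zinc finger regulator of stem cells also known as EVI1, had the largest difference among the tested members. It was at 81.0, 464 and 138 normalized counts in Stat3β TG 1 to 3, against 55.5, 29.8 and 15.5 in WT 1 to 3. Every Stat3β TG library was above every WT library, but the 3 Stat3β TG values themselves spanned 5.73-fold, and Stat3β TG 2 was the highest by far. The means were 228 ± 207 in Stat3β TG and 33.6 ± 20.3 in WT (SD, n = 3 each). The log2 fold change was 2.51 with a standard error of 0.72 and a 95% interval of 0.84 to 4.18 (limma adjusted p = 0.668). DESeq2 placed Mecom just outside its threshold, with a log2 fold change of 2.74 and an adjusted p of 0.0535. The range of its adjusted p over all 15 alternatives was 0.0535 to 0.99988.

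The separation of the groups for Mecom rested on few reads. The 3 Stat3β TG libraries held 121, 377 and 246 reads and the 3 WT libraries 51, 22 and 11. The nearest pair, Stat3β TG 1 and WT 1, had exact 95% Poisson intervals of 67.2 to 96.8 and 41.3 to 73.0 normalized counts, which overlap and cover counting error only. Without Stat3β TG 2 the log2 fold change was 1.80, and with WT 1 as the only WT library it was 1.63. The gene lies on chromosome 3 at 29951296 to 30509759 (minus strand), and its exons share 81 bases with the antisense gene Mecomos, whose reads cannot be told apart because the handling of strand is not stated.

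Erg, an ETS factor needed to maintain blood stem cells, was the more even of the 2 higher genes. It was at 3696, 2850 and 2524 normalized counts in Stat3β TG and at 2365, 1630 and 1357 in WT. Here too no Stat3β TG library was below a WT library, but Stat3β TG 3 and WT 1 were nearly level, with Poisson intervals of 2451 to 2599 and 2267 to 2467. The means were 3024 ± 605 in Stat3β TG and 1784 ± 522 in WT (SD, n = 3 each), a ratio of 1.70. The log2 fold change was 0.78 with a standard error of 0.24 and a 95% interval of 0.23 to 1.34 (limma adjusted p = 0.668). Without WT 1 it was 1.005 (limma adjusted p = 0.0505), where 2.37% of 12474 genes were called. With WT 1 as the only WT library it was 0.34.

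Gata2, the zinc finger factor that keeps progenitors and mast cell and basophil precursors, was the tested regulator with the opposite order. It was at 2370, 2613 and 2705 normalized counts in Stat3β TG and at 3046, 4163 and 2854 in WT. All Stat3β TG values lay below all WT values and close together, at 2562 ± 173, while WT was at 3354 ± 707 (SD, n = 3 each), with WT 2 the highest. Its log2 fold change was -0.37, with a standard error of 0.18 and a 95% interval of -0.78 to 0.04 (limma adjusted p = 0.668). The nearest pair, Stat3β TG 3 and WT 3, had Poisson intervals of 2629 to 2782 and 2731 to 2981, which overlap. Without WT 2 the log2 fold change was -0.20.

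The ratio of Erg to Gata2 within a library does not depend on how libraries were scaled, and was looked at after the values were seen. It was 1.56, 1.09 and 0.933 in Stat3β TG and 0.776, 0.392 and 0.475 in WT. Every Stat3β TG ratio was above every WT ratio, and WT 1 was the nearest of the WT libraries. This pair was chosen because its genes went in opposite directions, so the ratio is a description with no test.

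Lmo2, the LIM protein that bridges TAL1 to GATA factors, was abundant in all libraries. It was at 14578, 14631 and 11735 normalized counts in Stat3β TG and at 14339, 8775 and 8879 in WT. WT 1 lay within the Stat3β TG range, and only WT 2 and WT 3 were lower. Its log2 fold change was 0.39 (standard error 0.22, limma adjusted p = 0.668), and it was -0.08 with WT 1 as the only WT library.

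Tal1, the bHLH partner of LMO2 that starts blood formation, was counted at or near the limit of detection. Its reads numbered 2, 0 and 12 in Stat3β TG and 2, 4 and 3 in WT. The floor for a library with no read of a gene, set at 3 reads, is worth 1.69 to 4.22 normalized counts here. Zfp521, a zinc finger partner of early B-cell factors in progenitors, had 1, 0 and 3 reads in Stat3β TG and 0, 1 and 0 in WT. No fold change is given for these 2 genes. Lyl1, the bHLH relative of TAL1, was detected in every library, at 10110, 9790 and 10770 normalized counts in Stat3β TG and at 9043, 3987 and 6152 in WT.

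Myb, the DNA-binding factor on which progenitor growth and MLL-AF9 blasts depend, had 14537 to 60009 reads in each library. It was at 40162, 35256 and 32098 normalized counts in Stat3β TG and at 28311, 19679 and 38043 in WT. WT 3 lay within the Stat3β TG range, and WT 2 was the lowest library. Limma gave a log2 fold change of 0.37 (standard error 0.25, adjusted p = 0.675), which was 0.12 without WT 2. Its exons share 491 bases with the antisense gene Gm26577.

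Hlf, a PAR bZIP factor enriched in stem cells, was low, and its WT values lay on both sides of Stat3β TG. It was at 52.2, 43.1 and 50.0 normalized counts in Stat3β TG and at 62.0, 23.0 and 15.5 in WT, so the highest and the lowest value were both WT. Its reads numbered 35 to 89 per library in Stat3β TG and 11 to 57 in WT. Its log2 fold change of 0.75 (standard error 0.56, limma adjusted p = 0.678) was -0.36 with WT 1 as the only WT library.

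Cd34, the sialomucin used to mark progenitors, was nearly constant in WT and variable in Stat3β TG. It was at 3726, 4999 and 8057 normalized counts in Stat3β TG 1 to 3 and at 8061, 8029 and 8291 in WT 1 to 3. Stat3β TG 1 and Stat3β TG 2 were below WT, and Stat3β TG 3 was level with it, between WT 1 and WT 2. The means were 5594 ± 2226 in Stat3β TG and 8127 ± 143 in WT (SD, n = 3 each), and the coefficient of variation was 39.8% in Stat3β TG and 1.76% in WT. On the log2 scale the difference was -0.61, with a standard error of 0.26 and a 95% interval of -1.22 to -0.01 (limma adjusted p = 0.668). It was -0.91 without Stat3β TG 3 and -0.36 without Stat3β TG 1. Leaving out any 1 WT library gave -0.62 to -0.60. The antisense gene Gm16897 shares 148 exon bases with Cd34 but averaged 45.0 normalized counts in Stat3β TG and 57.6 in WT.

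Cd93, a C-type lectin-like receptor of early progenitors and a reported marker of MLL-rearranged leukaemia stem cells, differed between the groups by less than the spread within them. It was at 4710, 4307 and 5481 normalized counts in Stat3β TG and at 5849, 4649 and 3554 in WT. The Stat3β TG values all lay between the WT extremes. Limma put the log2 fold change at 0.07, with a standard error of 0.20 and a 95% interval of -0.40 to 0.54 (limma adjusted p = 0.913). The Cd34 to Cd93 ratio, looked at after the values were seen, was 0.791, 1.16 and 1.47 in Stat3β TG and 1.38, 1.73 and 2.33 in WT, where Stat3β TG 3 exceeded WT 1.

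**Figure D2:**
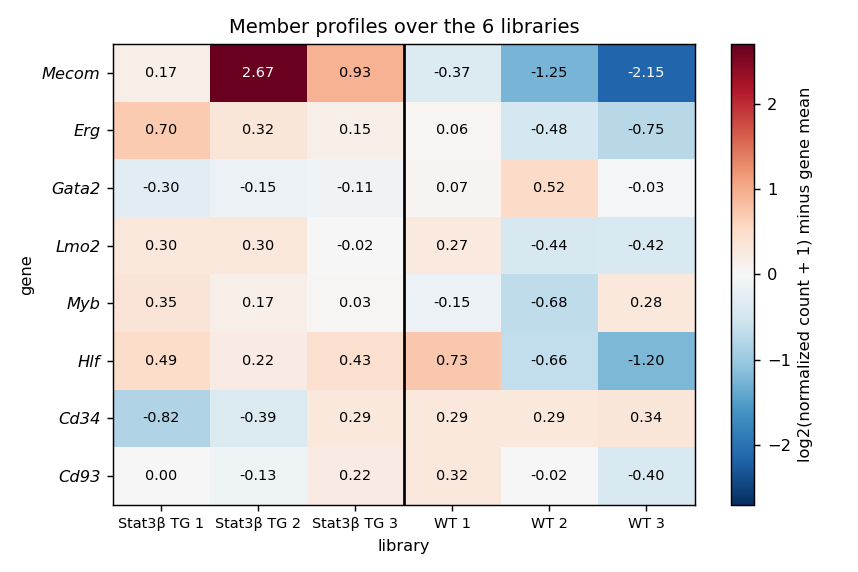
Profiles of the 8 tested members (rows) over the 6 libraries (columns), as log2(normalized count + 1) minus the gene's own mean, with the value printed in each cell; the line divides Stat3β TG from WT. WT 2 and WT 3 are the lowest libraries for Mecom, Erg, Lmo2 and Hlf, while Cd34 is lowest in Stat3β TG 1, at -0.82.

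Per kilobase of exon, which allows levels of different genes to be compared, the members spanned a wide range in both groups. Myb was highest in the mean, at 9501 ± 1077 normalized counts per kilobase in Stat3β TG and 7603 ± 2436 in WT (SD, n = 3 each), followed by Lmo2 at 7210 ± 875 and 5634 ± 1681. Their ranges overlapped in WT and did not in Stat3β TG. Cd34 came next, at 2143 ± 853 in Stat3β TG and 3114 ± 54.7 in WT. Erg, Cd93 and Gata2 were of one order, at 872 ± 175, 724 ± 89.4 and 696 ± 46.96 per kilobase in Stat3β TG, and at 515 ± 150, 702 ± 172 and 911 ± 192 in WT. Among these, Erg had the highest mean of the 3 in Stat3β TG and the lowest in WT, though the ranges of Erg and Cd93 overlapped in both groups. Mecom, at 35.2 ± 31.9 and 5.19 ± 3.13, and Hlf, at 8.58 ± 0.84 and 5.94 ± 4.43, were far lower. Tal1 and Zfp521 were lowest, with means of 0.629 and 0.120 per kilobase in Stat3β TG and 0.919 and 0.0692 in WT. Exon lengths are unions over GENCODE M21 basic transcripts, which may not be the annotation the authors counted on.

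The members did not move as 1 block across libraries. In 4 of the 8 tested members (Mecom, Erg, Lmo2 and Hlf) WT 2 and WT 3 were both lower than the other 4 libraries, a pattern seen in 21.9% of all tested genes. In 0 members were they both higher, which was seen in 20.5% of all tested genes. This is the pair of libraries that stood apart on the first principal component. Of the 8 tested members 6 had a positive and 2 a negative log2 fold change, where 51.4% of all tested genes were positive. With WT 1 as the only WT library, 3 were positive and 5 negative. The choice of the members with earlier results known makes this a description.

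**Figure D3:**
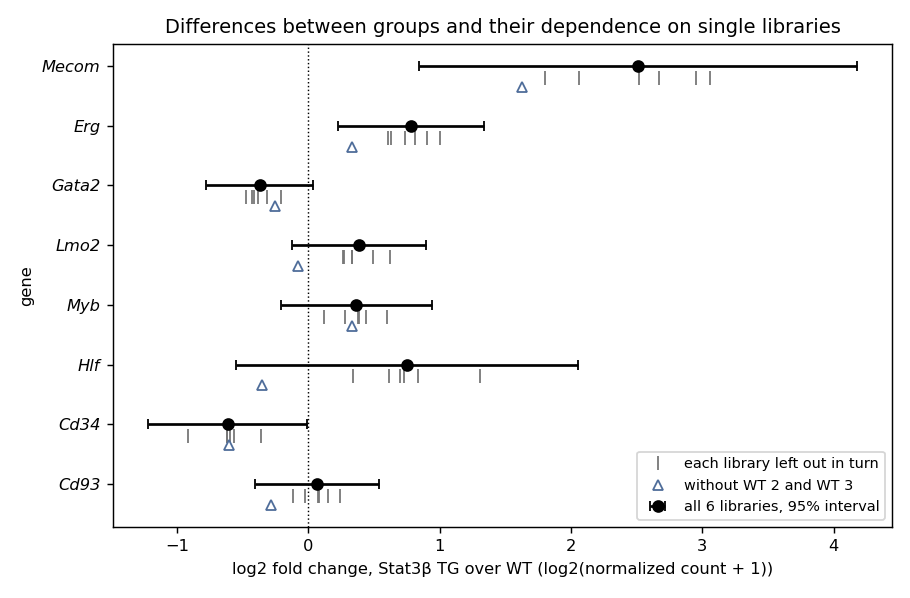
Log2 fold change, Stat3β TG over WT (x axis), of the 8 tested members (y axis); black points are the estimates from all 6 libraries with 95% intervals, grey ticks the estimates with each library left out in turn, and open triangles those with WT 1 as the only WT library. Mecom keeps values of 1.80 to 3.06 with 1 library left out, while the triangles of Lmo2, Hlf and Cd93 lie below 0.

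The measured partners of the LMO2 and TAL1 complex were split between both directions. Of 18 tested genes, 9 had a positive and 9 a negative log2 fold change by limma (median -0.02), against 7 and 11 by edgeR and by DESeq2 on the recovered reads; none passed limma over all genes and 2 had an unadjusted p under 0.05. Lmo4, a LIM-only relative of LMO2, was at 3678, 3302 and 3191 normalized counts in Stat3β TG and 2500, 2586 and 2432 in WT, with no overlap (log2 fold change 0.43, standard error 0.13, limma unadjusted p = 0.0111). Lyl1, whose values stand above, also had no overlap, with a log2 fold change of 0.75 and a standard error of 0.27. Without WT 1 it was called (1.04, limma adjusted p = 0.0496), as were 2.37% of all tested genes. WT 1, at 9043, was nearer to Stat3β TG than to WT 2 and WT 3. The single-stranded DNA-binding cofactor gene Ssbp3 averaged 1431 ± 67.9 in Stat3β TG and 1083 ± 376 in WT, and the corepressor gene Cbfa2t2 1010 ± 85.1 and 1385 ± 378 (SD, n = 3 each).

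Among relatives of the members 12 of 20 were tested, of which 10 had a positive and 2 a negative log2 fold change by limma (median 0.19). On the recovered reads the split was 7 positive and 5 negative by edgeR and by DESeq2, so it depends on the scale. Besides Lmo4 and Lyl1, the 2 negative by limma were Tef, a PAR bZIP relative of HLF, at 967 ± 220 normalized counts in Stat3β TG and 1417 ± 500 in WT, and Mybl2, a MYB relative of dividing cells, at 1442 ± 13.8 and 2029 ± 694 (SD, n = 3 each). Neither had an unadjusted p under 0.05. Fli1, the closest relative of ERG, was at 4343, 3710 and 3842 in Stat3β TG and 3555, 3349 and 4352 in WT, which overlap; Fli1 was named after its values were seen.

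Of 26 tested stem and progenitor regulators outside the 10, 11 had a positive and 15 a negative log2 fold change around a median of -0.08, and none passed limma. Those named here had an unadjusted limma p under 0.05 and went in both directions. Msi2, an RNA-binding protein that sustains stem cells, was at 218, 289 and 274 normalized counts in Stat3β TG and 318, 709 and 667 in WT (log2 fold change -1.04, standard error 0.34). It was called without WT 1 (-1.41, limma adjusted p = 0.0441), where 2.37% of all tested genes were called. Lin28b, a fetal RNA-binding protein that blocks let-7 maturation, was at 2329, 5382 and 5279 in Stat3β TG and 8832, 22363 and 6490 in WT. The groups of both genes did not overlap. Bcl11a, a repressor of fetal globin genes, was at 40.8, 25.9 and 115 in Stat3β TG and 23.9, 5.41 and 9.85 in WT, also without overlap but with WT 1 close to Stat3β TG 2.

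Surface genes of stem and progenitor cells gave no such separation. Of 22 genes 16 were tested, 11 with a positive and 5 with a negative log2 fold change (median 0.36). Limma called 0 of them, edgeR 0 and DESeq2 0, and none had an unadjusted limma p under 0.05. Thy1, a marker of mouse stem cells and T cells, was at 117, 51.7 and 96.6 normalized counts in Stat3β TG and 86.0, 17.6 and 1.41 in WT. Spn, which encodes CD43, averaged 24284 ± 1637 in Stat3β TG and 18705 ± 5700 in WT. The signalling receptor gene Cd244a stood at 1515 ± 382 in Stat3β TG and 1060 ± 565 in WT, and Cd47, the signal that holds off macrophages, at 11163 ± 1251 and 15700 ± 5000 (SD, n = 3 each). Slamf1, a marker of long-lived stem cells, was at 2.01 or less in every library, at or below the level of 3 reads.

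Among 11 partners and targets of MYB, all tested, 5 had a positive and 6 a negative log2 fold change by limma (median -0.05), against 7 and 4 by edgeR and by DESeq2. Ccnb1, the mitotic cyclin B1, was at 746, 942 and 1005 normalized counts in Stat3β TG and 1264, 1415 and 1233 in WT, with no overlap (log2 fold change -0.55, standard error 0.18, limma unadjusted p = 0.0146), and was the 1 gene of this list with an unadjusted p under 0.05. The coactivator gene Crebbp averaged 1987 ± 338 in Stat3β TG and 3086 ± 1501 in WT. The repressor gene Gfi1 was at 7468 ± 744 and 5984 ± 2257 and the testis and leukaemia cyclin gene Ccna1 at 19.98 ± 9.98 and 14.2 ± 19.8 (SD, n = 3 each). Over the 75 tested genes of the 5 lists together, 7 had an unadjusted limma p under 0.05, and 6 had groups without overlap, beside the 6.1% and 10.8% of all tested genes given above.

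**Figure D4:**
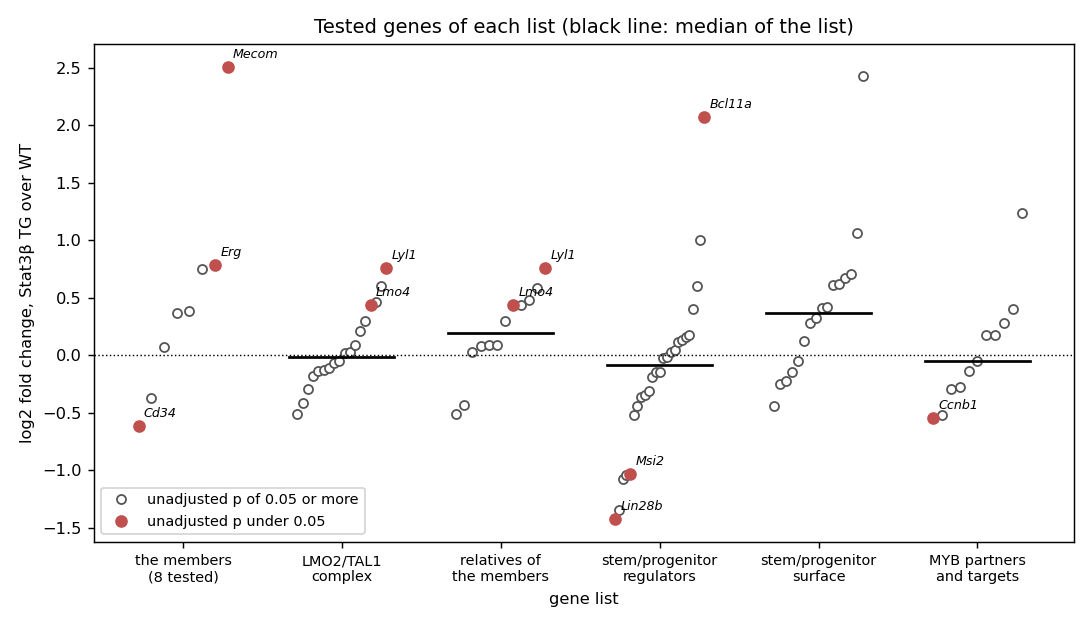
Log2 fold changes, Stat3β TG over WT (y axis), of the tested members and the tested genes of the 5 related lists (x axis), 1 point per gene with 1 gene not shown; filled points have an unadjusted limma p under 0.05 and black lines are list medians. The filled genes lie on both sides of 0, from Lin28b at -1.43 to Mecom at 2.51.

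Markers of other cells also varied between libraries. The 13 mature neutrophil markers summed to between 394324 and 581217 normalized counts in Stat3β TG and between 111637 and 383335 in WT, without overlap, and all 13 had a positive log2 fold change. Within Stat3β TG the sum was 581217 in Stat3β TG 1, where Cd34 was lowest, and 394324 in Stat3β TG 3, where Cd34 was highest. Stat3β TG 2 had a sum of 414583, near that of Stat3β TG 3, but Cd34 at 4999 against 8057. In WT the sum spanned 111637 to 383335 while Cd34 stayed between 8029 and 8291. In such bulk samples fewer cells of a type and less RNA per cell cannot be told apart, and the part of neutrophil RNA in the values of the members was not tested. Of 14 endothelial markers, the receptor genes Kdr and Tek and the genes Emcn and Sox17 had at most 3 reads in every library. Others were detected throughout, such as Eng at 363 to 838 normalized counts in Stat3β TG and 421 to 1085 in WT. Flt1 was at 150 to 224 in Stat3β TG and 107 to 273 in WT. The sum of the list was 868 to 1207 in Stat3β TG and 769 to 1689 in WT. Mast cell and basophil markers, a list that includes Gata2, summed to 5727 to 8189 in Stat3β TG and 6383 to 9690 in WT. Fcer1a and Tpsb2 had no more than 3 reads in every library. By contrast, Cpa3 was at 497 to 3722 in Stat3β TG and 506 to 1617 in WT, and Hdc at 989 to 3257 and 363 to 5359. Megakaryocyte markers summed to 1214 to 2320 in Stat3β TG and 937 to 2717 in WT. Of these Gp6 was at 0 in all 6 libraries, and Itga2b at 846 to 1869 in Stat3β TG and 629 to 2346 in WT. Erythroid markers summed to 76.3 to 170 in Stat3β TG and 81.6 to 283 in WT. Hbb-bt and Hba-a1 were at 0, and Alas2 at 25.9 to 56.2 in Stat3β TG and 12.7 to 149 in WT. Whether genes at 0 could be counted at all was not tested. The sums of monocyte and macrophage markers were 69398 to 119171 in Stat3β TG and 53893 to 72338 in WT, and those of eosinophil markers 6523 to 12059 in Stat3β TG and 9771 to 51514 in WT. Lymphoid markers came to 664 to 979 in Stat3β TG and 137 to 1494 in WT. Among them Cd3e was at 0, and Nkg7 at 622 to 878 in Stat3β TG and 103 to 1415 in WT. Stromal markers came to 2030 to 2446 in Stat3β TG and 2188 to 4964 in WT. Most of this was Pdgfrb, at 1888 to 2143 in Stat3β TG and 2040 to 4917 in WT. Of the 4 tested stromal markers, 3 had a positive and 1 a negative log2 fold change.

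Genes whose profiles over the 6 libraries were closest to those of the members were found by the root mean square difference of centred log2 values. For Erg these were Ccpg1os and Tmcc1, at 0.08 each on the log2 scale. Cd34 was closest to Bhlhb9, at 0.09, which stood at 203, 288 and 434 normalized counts in Stat3β TG and 398, 391 and 460 in WT, and to Gmpr, at 0.13. Lmo2 was closest to Gpsm3 and Tkfc, at 0.04 each, and Hlf to B230354K17Rik and Pla2g15, at 0.06 and 0.08. Gata2 was closest to Gm15760 and Cgrrf1, at 0.06 each, Myb to Bcat2 at 0.07 and Eif2d at 0.10, and Cd93 to Tmem41b and Utp23, at 0.04 each. Mecom had no near match: Unc5cl and Hmgn3 were the closest, at 0.59 and 0.68. Unc5cl was at 15.4, 112 and 27.5 in Stat3β TG and 13.1, 16.2 and 7.04 in WT, and shared the high value of Stat3β TG 2.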

How the data were processed

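RNA of sorted blasts was sequenced in 3 Stat3β TG and 3 WT libraries, grouped and numbered by their titles. Per the submitters' processing notes, the reads went through FastQC, STAR and DESeq2 on GRCm38 (mm10). For tool versions, gene counter, strand handling and annotation nothing was stated in the labels. The authors deposited normalized counts per Entrez gene, a signal that is never negative. In each library all values were whole multiples of 1 step, within 0.001, for 100% of 146724 values, so whole reads were recovered. Symbols and positions came from the NCBI RefSeq table of GRCm38.p6, which matched 24376 of 24454 IDs, and exon lengths from GENCODE M21. No 2 libraries agreed within sampling noise.

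Genes reaching a normalized count of 10 in 3 or more libraries were tested with limma 3.58.1 (R 4.3.3; mean-variance trend, robust, group as the only term, two-sided, Benjamini-Hochberg adjustment) on log2 of the deposited value plus a pseudocount of 1. The pseudocount makes fold changes of low genes such as Hlf and Mecom smaller. Alternatives were edgeR 4.0.16 and DESeq2 1.42.0 on the recovered reads, other pseudocounts, no filter, quantile normalization, a replicate block and left-out libraries. The fits were tested on simulated data with the same spread in both groups and no split within a group, unlike WT here. Named genes were the 10 members, Stat3, up to 4 genes per list with the smallest p and the 2 closest profiles per member; Fli1, Hoxa9, Slamf1, the antisense genes and the ratios were chosen after values were seen, and 1 result under the rule is not reported here. The members and lists were chosen with earlier results of these data known. Poisson intervals and the limit of 3 reads cover counting error only.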

Additional observations from a re-analysis of the deposited data

How the results depend on the processing

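No member was called under any of the 15 alternatives. Over all genes, 0 calls by limma became 17 by DESeq2, 8 without WT 2 and WT 3, 736 without WT 1 and WT 3, and 0 to 296 with 1 library left out, the highest without WT 1 (5 without WT 2); in the fits with 1 WT library that library is assumed to vary like the others. List genes called numbered 0 to 2 with 1 library left out (Lyl1 and Msi2, without WT 1) and 8 without WT 1 and WT 3. Mecom, Erg, Gata2, Myb and Cd34 had 1 sign under all 15. The median over all 10 members, which includes Tal1 and Zfp521, both below the filter on low counts, was 0.34, and without WT 2 and WT 3 it was -0.17; there the sign changed for Lmo2, at -0.079, Hlf, at -0.36, and Cd93, at -0.28; Cd93 ranged from -0.12 to 0.24 with 1 library left out (-0.03 without Stat3β TG 3). Without WT 1 and WT 3 the median over the 10 members was 0.34, and no tested member changed sign. The cause of these shifts was not tested. The deviations of same-numbered libraries from their group means had correlations of 0.14, 0.10 and -0.11. These show no clear pairing by number, but cannot exclude one, since libraries of unlike number were not compared. A replicate block left 0 calls and moved no member past the threshold. With it 934 genes had an unadjusted limma p under 0.05, against 771 in the main fit. Read numbers limit Mecom, Hlf, Tal1 and Zfp521.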
